A study of Mus musculus with 12 samples.

Results

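Chemokines and their receptors were followed in whole mouse ovaries whose oocytes had lost the kinase Mtor and in wild-type ovaries. The members were chosen by gene symbol alone, as mouse genes with symbols of CC, CXC, CX3C or XC chemokines, of chemokine receptors or of atypical chemokine receptors. The chemokine genes Ccl21c, Pf4 and Ppbp fall outside this rule. Of 24255 genes in the table, 61 met this rule, 38 of them ligand genes and 23 receptor genes. The conditional knockout group (CKO, n = 5 libraries) carried a deletion of Mtor made by Gdf9-Cre, a recombinase driven by the promoter of an oocyte gene, so all other ovarian cells were left with an intact gene. The wild-type group (WT, n = 7 libraries) is labelled only as such. Both groups were C57BL/6 mice of 6 months, and both had received 5 IU of equine chorionic gonadotropin, which drives follicle growth, 46 h before the ovaries were taken.

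Chemokines are small secreted proteins that bind G protein-coupled receptors on leukocytes and direct their movement along gradients held on heparan sulphate. The classes are named for the spacing of the first cysteines of the mature protein, and the receptor families follow the same names. Atypical receptors bind chemokines without G protein signalling and take them up or display them. In the ovary, chemokines are known for the entry of macrophages and other leukocytes into follicles and corpora lutea.

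The class of a ligand can be read from its coding sequence. Each of the following stretches holds 36 coding bases of exon 2 (GENCODE M21, mm10), and they are shown because the results are ordered by these classes. Capitals mark the codons of the first cysteines.
Ccl2, chr11:82036494-82036529, plus strand: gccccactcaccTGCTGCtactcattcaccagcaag
Ccl7, chr11:82046526-82046561, plus strand: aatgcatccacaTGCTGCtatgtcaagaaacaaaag
Ccl21a, chr4:42773717-42773752, minus strand: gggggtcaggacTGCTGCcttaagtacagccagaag
Cxcl1, chr5:90891484-90891519, plus strand: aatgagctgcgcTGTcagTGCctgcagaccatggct
Cxcl12, chr6:117171496-117171531, plus strand: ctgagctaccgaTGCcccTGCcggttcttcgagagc
Cx3cl1, chr8:94778039-94778074, plus strand: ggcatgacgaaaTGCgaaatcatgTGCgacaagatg
Xcl1, chr1:164932954-164932989, minus strand: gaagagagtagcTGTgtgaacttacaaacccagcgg
The cysteine codons were adjacent in Ccl2, Ccl7 and Ccl21a, separated by 1 codon in Cxcl1 and Cxcl12, and separated by 3 codons in Cx3cl1. Xcl1 had a single cysteine codon in this stretch.

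Levels are given as FPKM, the fragments of a gene divided by its transcript length and by the size of the library. Steps between low values put 1 fragment on a 1 kb transcript at 0.294 to 0.650 FPKM, so a value below about 1 FPKM rests on few fragments, and a value listed at 0 can also be a failed estimate. The WT libraries had a relative depth of 1.11 ± 0.21 (SD, n = 7), and the CKO libraries one of 1.13 ± 0.32 (SD, n = 5). Of the whole organ, 7 of 7 granulosa cell markers and 3 of 5 tested oocyte markers were lower in CKO, and Mtor itself was at 4.70 FPKM in WT and 5.02 FPKM in CKO (adjusted p = 0.709). In whole ovaries, fewer cells of a type and less RNA per cell cannot be told apart. For 1 WT library the column name matches the labels of more than 1 sample, and it is called the unnumbered WT library. WT replicate 5 is the only WT sample that no other column matches. The labels do not tie the libraries to separate animals, so the spread behind each p-value is that between libraries and may be partly technical.

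Chemokine and receptor transcripts were higher in CKO ovaries in 18 of the 37 members that could be tested and lower in 0 (limma on log2(FPKM + 1), adjusted p under 0.05). Over all 13168 genes tested, 8.70% were higher and 7.59% were lower. These shares are the background for the counts of roles, clusters, marker lists and pathway lists at this threshold. At an unadjusted p under 0.05, limma gave 27 members higher and 0 lower, against 15.5% and 14.7% of all genes tested. The exact Wilcoxon test called 13 members higher and 0 lower after adjustment, against 5.69% and 5.13%. The 18 comprised 11 of 23 tested ligands and 7 of 14 tested receptors. Fold changes were above 0 for 34 of the 37 members, with a median of 1.04 on the log2 scale against -0.01 over all genes. All 5 CKO libraries lay above all 7 WT libraries for 10 of the 37, against 4.09% of all genes tested, and below them for 0, against 3.65%. A member passed the filter with at least 1 FPKM in at least 5 libraries, which can be reached through the CKO libraries alone.

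**Figure D1:**
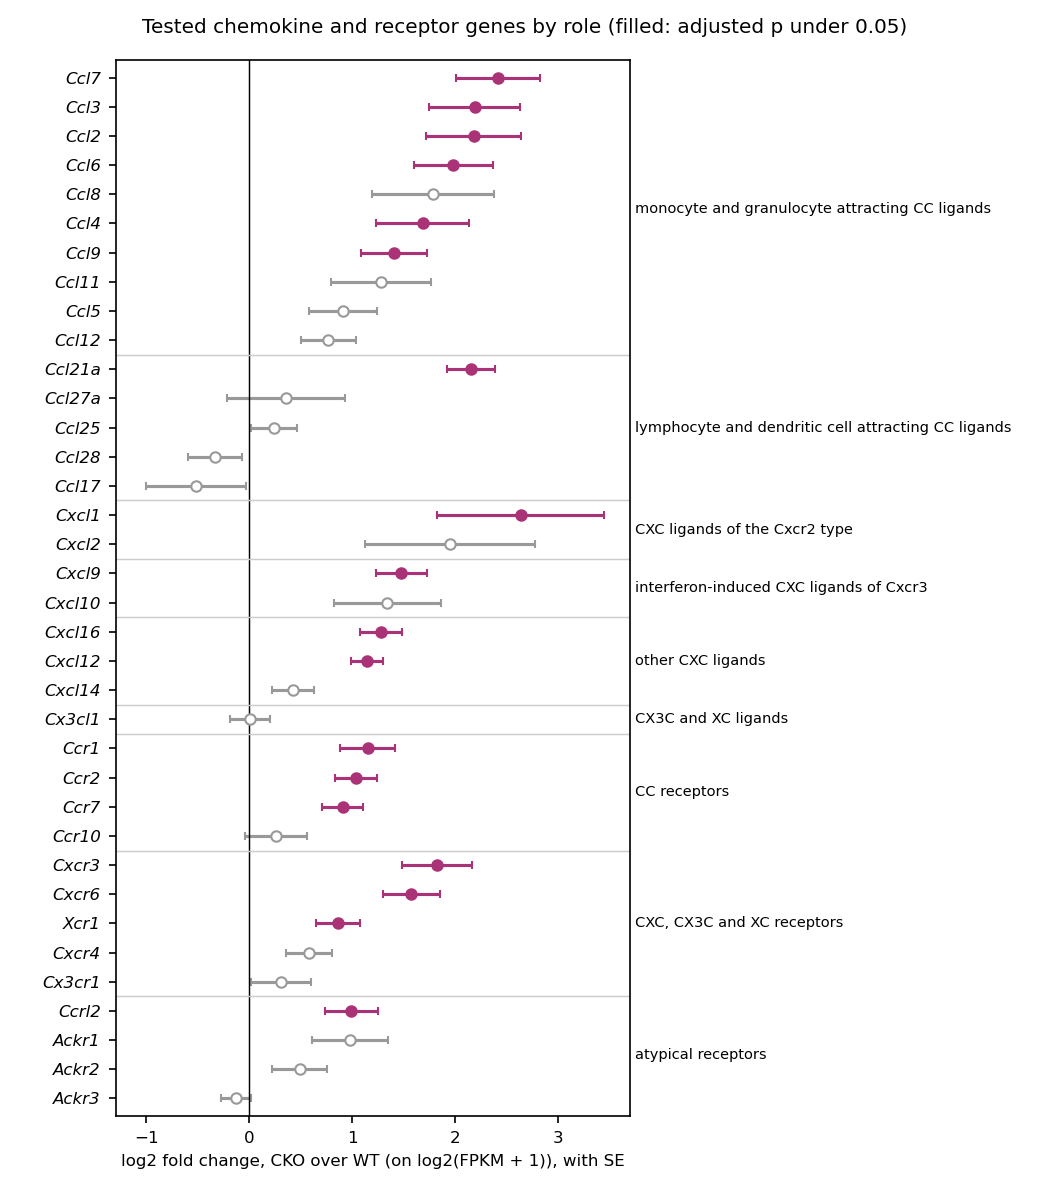
Log2 fold change of CKO over WT for 36 of the 37 tested members, grouped by role, on log2(FPKM + 1) with its SE (horizontal bars). Filled points are the 18 members with an adjusted p under 0.05, all to the right of 0, and 3 open points (Ccl17, Ccl28 and Ackr3) lie to its left.

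The CC ligands that attract monocytes and granulocytes held the most calls, with 6 of 10 tested members higher and a median log2 fold change of 1.73. Ccl2, the main ligand of Ccr2 on monocytes, ranged from 2.03 to 20.9 FPKM in WT with a median of 4.65 FPKM. In CKO it was at 49.0, 16.9, 9.73, 39.1 and 40.9 FPKM in replicates 1 to 5. The groups overlapped through WT replicate 7 alone, which held the 20.9 FPKM. The mean rose 4.79-fold, with a log2 fold change of 2.18 (SE 0.46, adjusted p = 0.00549 in limma). Without CKO replicates 1 and 4 it was 1.72 (adjusted p = 0.0581), and without replicates 1 and 5 it was 1.7 (adjusted p = 0.0584).

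Ccl7, another Ccr2 ligand next to Ccl2 on chromosome 11, gave the largest log2 fold change among members whose groups did not overlap. It was listed at 0 in 2 WT libraries, with a median of 1.87 FPKM and a highest value of 5.14 FPKM. All 5 CKO libraries were higher, at 12.2, 9.22, 9.86, 13.2 and 14.6 FPKM. These values rest on an estimated 0 to 7 fragments in WT and 14 to 33 in CKO. In limma this was a log2 fold change of 2.42 (SE 0.41, adjusted p = 0.00158). Ccl8, a further neighbour, was listed at 0 in 2 WT libraries, had a WT median of 2.46 FPKM and reached 16.4 FPKM in WT replicate 6. Its CKO values were 8.38, 5.43, 11.2, 23.5 and 6.49 FPKM. Its log2 fold change of 1.78 (SE 0.59) did not pass the test (adjusted p = 0.0549 in limma), while it passed without WT replicate 6 (adjusted p = 0.00567).

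Ccl3 and Ccl4, inflammatory ligands made by activated macrophages and lymphocytes, rose from near the detection limit. Ccl3 lay between 0 and 4.10 FPKM in WT, with a median of 0.855 FPKM, and at 13.3, 3.35, 4.55, 18.9 and 14 FPKM in CKO. The CKO libraries fell into 3 high and 2 low values, and replicate 2 lay inside the WT range. In limma its log2 fold change was 2.19 (SE 0.44, adjusted p = 0.00433). Ccl4 was listed at 0 in 3 WT libraries and reached 2.68 FPKM there, against 13.6, 3.51, 2.40, 7.18 and 1.07 FPKM in CKO. Its log2 fold change of 1.68 (SE 0.46, adjusted p = 0.0211 in limma) lost its call without CKO replicate 1 (adjusted p = 0.0550) or without CKO replicate 4 (adjusted p = 0.0549). Coding sequences of Ccl3 and Ccl4 are 73.1% identical, and whether fragments were shared between them was not examined.

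Ccl6 and Ccl9, rodent ligands of Ccr1 made largely by myeloid cells, both reached their highest levels in CKO replicates 1 and 5. Ccl6 ranged from 11.8 to 26.9 FPKM in WT, with a median of 15.2 FPKM. In CKO it stood at 201, 32.0, 39.0, 59.4 and 114 FPKM, all above WT, and the mean rose 4.99-fold (log2 fold change 1.98, SE 0.38, adjusted p = 0.00329 in limma). Ccl9 kept to 2.71 to 4.93 FPKM in WT, with a median of 4.19 FPKM. Its CKO values were 28.5, 4.52, 8.59, 11.2 and 19.0 FPKM, and only replicate 2 fell inside the WT range. The log2 fold change was 1.40 (SE 0.32, adjusted p = 0.00865 in limma), against 0.81 without CKO replicates 1 and 5 (adjusted p = 0.0539) and 1.05 without replicates 1 and 4 (adjusted p = 0.0546). The other tested members of this role did not pass. Ccl5, an attractant of T cells and monocytes, had a log2 fold change of 0.91 (adjusted p = 0.0756), Ccl11 (eotaxin) 1.28 (adjusted p = 0.0874) and Ccl12, another Ccr2 ligand, 0.77 (adjusted p = 0.0606). Ccl11 and Ccl12 passed without CKO replicate 2 (adjusted p = 0.0123 and 0.0318), and Ccl5 passed without WT replicate 3 (adjusted p = 0.0458).

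Among the CC ligands that attract lymphocytes and dendritic cells, Ccl21a was the single member called of 5 tested. Ccl21a (chr4:42772860-42773993, minus strand, mm10) encodes a form of Ccl21, the Ccr7 ligand of lymphatic vessels and lymph node stroma. Its WT values ran from 24.5 to 61.5 FPKM, with a median of 44.9 FPKM. The CKO values were 309, 137, 162, 272 and 164 FPKM, so the lowest CKO library, at 137 FPKM, lay well above the highest WT library. The mean rose 4.61-fold (log2 fold change 2.15, SE 0.23, adjusted p = 0.000212 in limma), on an estimated 44 to 130 fragments in WT and 256 to 915 in CKO. The coding sequence of Ccl21b is 99.5% identical to that of Ccl21a, and Ccl21b is listed at 0 in 11 libraries. Ccl21c, outside the symbol rule, is also listed at 0 in 11 libraries. The value of Ccl21a may therefore pool more than 1 gene. Of 4 lymphatic endothelium markers, 1 was higher, the hyaluronan receptor Lyve1, at 3.62 to 9.51 FPKM in WT and 19.7 to 43.6 FPKM in CKO. Prox1, the lymphatic transcription factor, was at 0.453 to 1.72 FPKM in WT and 1.08 to 2.64 FPKM in CKO, and Flt4, the receptor of lymphatic growth factors, at 3.99 to 7.95 and 7.25 to 11.7 FPKM. The part of lymphatic vessels in the Ccl21a result was not tested. Ccl25, Ccl27a, Ccl28 and Ccl17 did not pass, with log2 fold changes of 0.24, 0.36, -0.33 and -0.52.

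**Figure D2:**
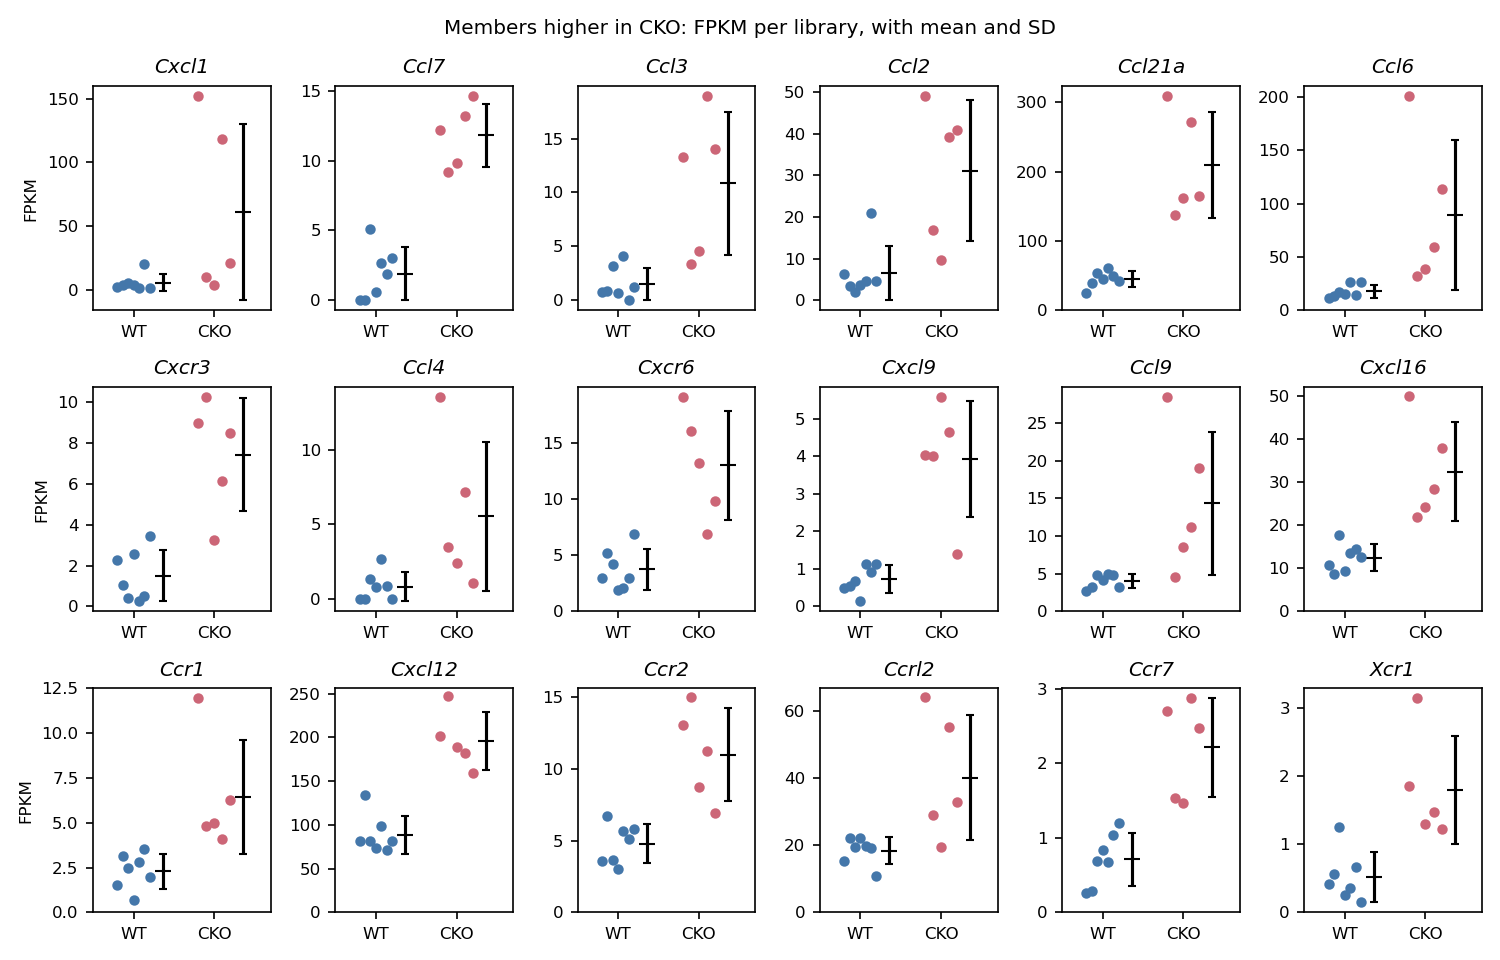
FPKM in each library (points) for the 18 members higher in CKO, with the mean and SD of each group (black) and a linear axis per gene, ordered by log2 fold change. Ccl7, Ccl21a, Ccl6, Cxcr6, Cxcl9, Cxcl16, Ccr1, Cxcl12, Ccr2 and Ccr7 show no overlap of the groups, while Cxcl1 has 2 high and 3 low CKO libraries.

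The CXC ligands of Cxcr2, which attract neutrophils, and those of Cxcr3, which are induced by interferon and attract T and NK cells, lie in 2 clusters on chromosome 5. Promoters of 4 of these genes are shown, because Cxcl1, Cxcl2 and Cxcl10 were highest in the same CKO libraries and Cxcl3 is the closest copy of Cxcl2. Only Cxcl1 among them was called, and the other 3 were chosen after their values were seen. The stretches are the 100 bases before the start of the RefSeq entry, and 220 bases for Cxcl10 (GRCm38.p6). Capitals mark matches to a kappa B motif (GGGA and TTCC with any 2 bases between them), and in Cxcl10 also to an interferon response motif (ISRE, GAAA followed after any 2 bases by GAAA) and an AP-1 motif (TGANTCA, with N for any base). All were searched on both strands.
Cxcl1, chr5:90891145-90891244, plus strand: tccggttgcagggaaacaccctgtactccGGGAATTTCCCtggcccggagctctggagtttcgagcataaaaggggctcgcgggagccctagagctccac
Cxcl2, chr5:90903799-90903898, plus strand: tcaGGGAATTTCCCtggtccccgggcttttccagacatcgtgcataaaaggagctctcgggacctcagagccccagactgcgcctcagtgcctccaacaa
Cxcl3, chr5:90786001-90786100, plus strand: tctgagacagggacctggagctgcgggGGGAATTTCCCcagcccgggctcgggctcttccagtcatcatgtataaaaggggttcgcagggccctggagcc
Cxcl10, chr5:92348890-92349109, minus strand: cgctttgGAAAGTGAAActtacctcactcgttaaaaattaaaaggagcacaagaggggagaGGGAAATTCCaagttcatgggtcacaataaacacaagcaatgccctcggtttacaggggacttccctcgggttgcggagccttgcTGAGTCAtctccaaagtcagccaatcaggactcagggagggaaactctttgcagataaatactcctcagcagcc
Cxcl1, Cxcl2 and Cxcl3 hold the same run of 11 bases, GGGAATTTCCC, which matches the motif on both strands with the matches overlapping. It begins 71, 97 and 73 bases before the start. In Cxcl10 the kappa B match begins 159, the ISRE match 213 and the AP-1 match 74 bases before the start. Within 250 bases before the start, the kappa B motif occurred in 6 of 46 members with a RefSeq entry (Ccl1, Ccr3, Cxcl1, Cxcl2, Cxcl3 and Cxcl10), or 10.9% of their entries, against 1.21% of 32851 entries of all genes. The ISRE motif occurred in 5.45% and 2.98%, and the AP-1 motif in 10.9% and 6.75%. Of 13 called members with an entry, 1 held the kappa B motif. A match is a description of letters and not a bound site.

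Cxcl1 (chr5:90891241-90893115, mm10) had the largest log2 fold change of the called members on log2(FPKM + 1), and its libraries varied widely within both groups. With a pseudocount of 0.1, Ccl7, Ccl3 and Ccl4 lay above it. In WT it lay between 0.945 and 20.1 FPKM with a median of 3.90 FPKM, the highest value again in replicate 7. In CKO it stood at 152 and 118 FPKM in replicates 1 and 4 and at 9.85, 3.52 and 20.6 FPKM in replicates 2, 3 and 5. Cxcl1 had a log2 fold change of 2.64 (SE 0.81, adjusted p = 0.0382 in limma). Its call was lost in 9 of 12 fits with a library removed, with log2 fold changes from 2.03 without CKO replicate 1 to 3.30 without CKO replicate 3 and adjusted p up to 0.10. Without CKO replicates 1 and 4 it was 1.15 (adjusted p = 0.294). Cxcl2 had 45.5 and 28.0 FPKM in the same CKO replicates, and 1.74, 0 and 7.61 FPKM in the others, against a WT median of 0.823 FPKM and a WT range of 0 to 6.62 FPKM. Its log2 fold change of 1.95 (SE 0.83) did not pass (adjusted p = 0.126 in limma), and without CKO replicate 3, listed at 0, it was 2.70 and passed (adjusted p = 0.0243). Coding sequences of Cxcl1 and Cxcl2 are 76.6% identical and those of Cxcl2 and Cxcl3 89.8%. Whether fragments were shared between these genes was not examined.

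Cxcl9 and Cxcl10, neighbours that share the receptor Cxcr3, differed in how they varied among the CKO libraries. Cxcl9 was low in WT, at 0.132 to 1.14 FPKM with a median of 0.660 FPKM. It stood at 4.04, 4.0, 5.57, 4.64 and 1.40 FPKM in CKO, all above WT, with a log2 fold change of 1.48 (SE 0.25, adjusted p = 0.00148 in limma). Cxcl10 ranged from 5.65 to 36.5 FPKM in WT, with a median of 10.4 FPKM, and was at 71.7, 8.55, 20.3, 86.9 and 21.3 FPKM in CKO. CKO replicates 1 and 4 were high, as for Cxcl1 and Cxcl2, and CKO replicate 2 lay under the WT median. The log2 fold change of 1.34 (SE 0.52) did not pass (adjusted p = 0.0942 in limma), and it passed without WT replicate 7 (adjusted p = 0.0348) and without CKO replicate 2 (adjusted p = 0.0240).

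Of the other CXC ligands, 2 of 3 tested were higher, and both had groups that did not overlap. Cxcl12 (chr6:117168535-117181367, plus strand, mm10) is the homeostatic ligand of Cxcr4, made by stromal cells, and was the ligand with the highest mean level in WT. Its WT values ran from 71.4 to 134 FPKM with a median of 81.9 FPKM. The CKO values were 202, 248, 189, 182 and 159.7 FPKM. The highest was 1.55-fold the lowest, against 1.59-fold for Ccl7, 5.04-fold for Ccl2 and 43.2-fold for Cxcl1. The mean rose 2.2-fold (log2 fold change 1.15, SE 0.15, adjusted p = 0.000413 in limma). Of 6 stromal fibroblast markers 3 were higher, among them the matrix proteoglycans Dcn (116 to 247 FPKM in WT, 720.1 to 1028 FPKM in CKO) and Lum (131 to 193 and 338 to 549.6 FPKM), while the growth factor receptor Pdgfra was at 22.4 to 59.8 and 40.7 to 71.0 FPKM. The part of stromal cells in the Cxcl12 result was not tested.

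Cxcl16 (chr11:70453983-70459984, minus strand, mm10) is a membrane-bound chemokine and scavenger receptor of macrophages. It ranged from 8.58 to 17.7 FPKM in WT, with a median of 12.5 FPKM, and stood at 50.0, 22.0, 24.1, 28.3 and 37.8 FPKM in CKO. The log2 fold change was 1.28 (SE 0.21, adjusted p = 0.00121 in limma). Cxcl16 shares 552 exon bases, 18.3% of its own, with Zmynd15 on the opposite strand, which rose from 0.936 to 2.32 FPKM (log2 fold change 0.77, adjusted p = 0.00375). The use of strand in counting is not given in the sources used here, so reads of the shared bases cannot be told apart. Cxcl14, a chemokine of epithelia and stroma, was at 47.5 to 99.9 FPKM in WT with a median of 80.9 FPKM, and at 133, 103, 61.0, 134 and 101 FPKM in CKO. Its log2 fold change of 0.42 (SE 0.21) did not pass (adjusted p = 0.182 in limma), and it passed without CKO replicate 3 (0.61, adjusted p = 0.0403). Cx3cl1, the membrane-anchored ligand of Cx3cr1, differed by 0.01 on the log2 scale (SE 0.19, adjusted p = 0.984). Its WT range was 8.96 to 21.4 FPKM, with a median of 9.54 FPKM, and its CKO values were 12.4, 11.3, 10.1, 14 and 8.5 FPKM.

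Receptors of the CC family were higher in 3 of 5 tested members. Ccr2, which brings monocytes from blood into tissue, was at 3.04 to 6.70 FPKM in WT, with a median of 5.13 FPKM. The CKO values of 13, 15, 8.72, 11.2 and 6.96 FPKM were all above WT (log2 fold change 1.04, SE 0.20, adjusted p = 0.00373 in limma). The order of the CKO libraries differed from that of its ligand Ccl2, with CKO replicate 5 lowest for Ccr2 and second highest for Ccl2. Ccr1, the receptor of Ccl3, Ccl6 and Ccl9 on myeloid cells, was at 0.678 to 3.52 FPKM in WT with a median of 2.49 FPKM, and at 11.9, 4.83, 4.97, 4.09 and 6.29 FPKM in CKO. Its log2 fold change was 1.15 (SE 0.27, adjusted p = 0.0102 in limma), against 0.83 without CKO replicates 1 and 5 (adjusted p = 0.0780).

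Ccr7 guides dendritic cells and T cells towards Ccl21a. Its level was low, at 0.262 to 1.20 FPKM in WT with a median of 0.694 FPKM, and at 2.70, 1.53, 1.47, 2.88 and 2.48 FPKM in CKO, on an estimated 1 to 7 and 5 to 18 fragments. The groups did not overlap (log2 fold change 0.91, SE 0.20, adjusted p = 0.00697 in limma), against 0.79 without CKO replicates 1 and 5 (adjusted p = 0.0645) and 0.73 without replicates 1 and 4 (adjusted p = 0.0748). Ccr10, the receptor of Ccl27a and Ccl28, had a log2 fold change of 0.26 (adjusted p = 0.617).

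The CXC, CX3C and XC receptors were likewise higher in 3 of 5 tested members. Cxcr3, the receptor of activated T and NK cells, was at 0.277 to 3.44 FPKM in WT, with a median of 1.04 FPKM, and at 8.99, 10.2, 3.27, 6.11 and 8.46 FPKM in CKO. CKO replicate 3 lay inside the WT range, and the log2 fold change was 1.83 (SE 0.34, adjusted p = 0.00267 in limma). Cxcr6, the receptor of Cxcl16 on T and NK cells, ranged from 1.91 to 6.92 FPKM in WT, with a median of 2.97 FPKM. It was at 19.1, 16, 13.2, 6.93 and 9.82 FPKM in CKO, where the lowest value just cleared the highest WT value. This gave a log2 fold change of 1.57 (SE 0.28, adjusted p = 0.00188 in limma). Cxcr6 lies within Fyco1 on the opposite strand without shared exon bases, and Fyco1 differed by 0.07 on the log2 scale (adjusted p = 0.833).

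Xcr1, a receptor of cross-presenting dendritic cells, was at 0.160 to 1.26 FPKM in WT with a median of 0.420 FPKM. The CKO values were 1.86, 3.14, 1.29, 1.47 and 1.22 FPKM, the last of them below the highest WT library. The log2 fold change was 0.87 (SE 0.21, adjusted p = 0.0137 in limma), and the call was lost with little change in size without CKO replicates 1 and 4 (0.89, adjusted p = 0.0596) and without replicates 2 and 3 (0.75, adjusted p = 0.0590). Over the 8 libraries with shared replicate numbers it was 0.85, with an adjusted p of 0.110 with the replicate block and 0.0701 without it. Cxcr4, the receptor of Cxcl12, was at 12.3 to 26.7 FPKM in WT with a median of 18.2 FPKM, and at 39.0, 18.0, 18.3, 25.8 and 37.4 FPKM in CKO. Its log2 fold change of 0.58 (SE 0.22) did not pass (adjusted p = 0.0926 in limma), and it passed without WT replicate 7 (adjusted p = 0.0462) and without CKO replicate 2 (adjusted p = 0.0493). Cx3cr1, a receptor of resident macrophages, was at 4.81 to 16.7 FPKM in WT with a median of 11 FPKM, and at 10.2, 18.5, 15.5, 19.1 and 6.10 FPKM in CKO (log2 fold change 0.31, SE 0.29, adjusted p = 0.525 in limma). Cx3cr1 was low in CKO replicates 1 and 5, the libraries in which Ccl6 was highest.

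Among the atypical receptors 1 of 4 tested members was higher. Ccrl2, which binds the attractant chemerin and presents it to cells that carry Cmklr1, was at 10.8 to 22.2 FPKM in WT, with a median of 19.4 FPKM, and at 64.3, 29.2, 19.6, 55.2 and 32.8 FPKM in CKO. The log2 fold change was 0.99 (SE 0.26, adjusted p = 0.0177 in limma), and 0.54 without CKO replicates 1 and 4 (adjusted p = 0.143). The adjusted p was 0.0958 without replicates 1 and 5. Ackr3, which takes up Cxcl12, was at 15.6 to 28.7 FPKM in WT with a median of 22.1 FPKM, and at 19.7, 19.3, 18.2, 18.4 and 26.9 FPKM in CKO (log2 fold change -0.13, SE 0.14, adjusted p = 0.599 in limma). Ackr1, the chemokine receptor of venules and red cells, had a log2 fold change of 0.98 (adjusted p = 0.0876) and passed without WT replicate 6 (adjusted p = 0.0300). Ackr1 shares 25.7% of its exon bases with Cadm3 on the same strand, which rose from 1.3 to 4.99 FPKM (log2 fold change 1.21, adjusted p = 0.0156), so reads of the shared bases cannot be told apart. Ackr2, which clears inflammatory CC ligands, had a log2 fold change of 0.49 (adjusted p = 0.239).

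Set side by side, both sides of several ligand and receptor pairs were higher in CKO. They were Ccl2 and Ccl7 with Ccr2, Ccl3, Ccl6 and Ccl9 with Ccr1, Ccl21a with Ccr7, Cxcl9 with Cxcr3, and Cxcl16 with Cxcr6. Cxcl12 was higher while neither of its receptors Cxcr4 and Ackr3 passed. Cxcl1 was higher while its receptor Cxcr2 stayed under the filter, at 0.170 to 0.812 FPKM in WT and 0.262 to 1.54 FPKM in CKO. Among neutrophil markers, Mpo was listed at 0 in all libraries and Elane in 11, and 0 of 3 tested markers passed. Retnlg, also under the filter, was listed at 0 in 8 libraries and reached 1.19 FPKM in WT and 4.85 FPKM in CKO. S100a8 reached 8.55 FPKM in WT and 6.24 FPKM in CKO, and S100a9 11.9 and 36.9 FPKM. Csf3r, a neutrophil growth factor receptor, had a log2 fold change of 0.67 (adjusted p = 0.0655). The neutrophil sum was 2.21 to 19.4 FPKM in WT, and 50.3 FPKM in CKO replicate 1, the library with the highest Cxcl1, against 4.30 to 20.5 FPKM in the other CKO libraries. The part of neutrophils in the Cxcl1 result was not tested. No relation between a ligand and its receptor across libraries was tested.

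**Figure D3:**
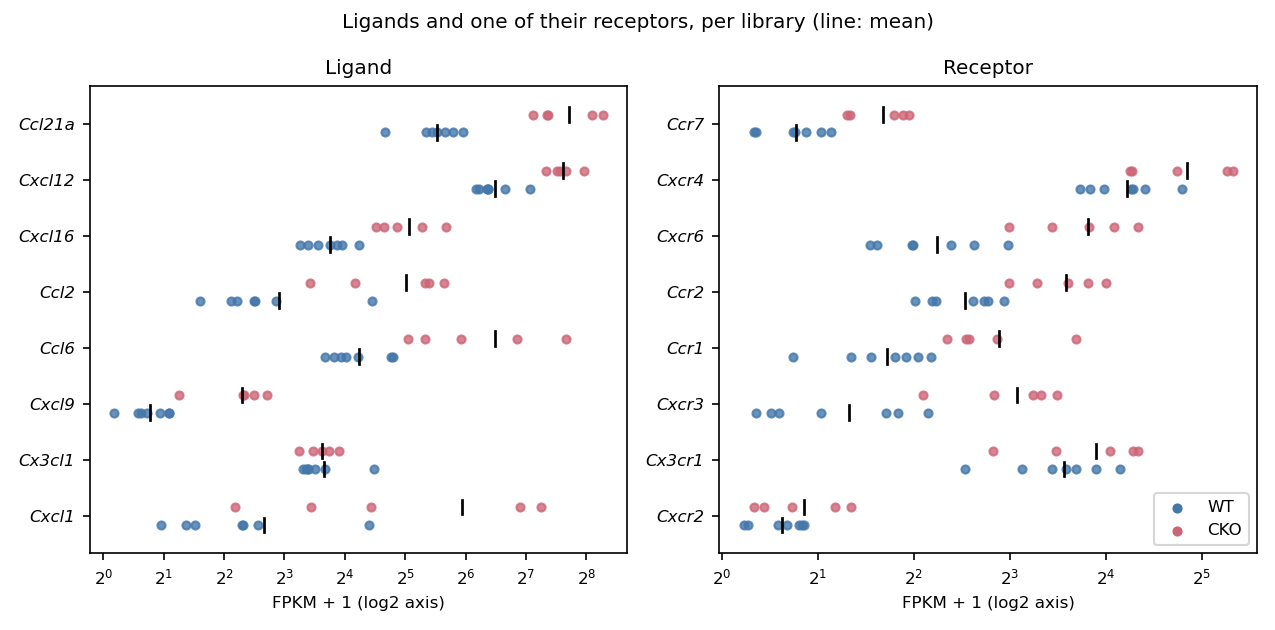
FPKM + 1 in each library on log2 axes for 8 ligands (left) and 1 receptor of each (right), WT in blue and CKO in red, with the group mean as a black line. Ccl21a and Cxcl12 are the ligands with the highest means, Ccr7 and Cxcr2 lie near the detection limit, and Cx3cl1 shows the groups on top of each other.

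The CKO libraries did not contribute alike. CKO replicate 1 was the highest CKO library for 10 of the 18 called members and among the highest 2 for 15, and it was the lowest for 0. CKO replicate 4 was among the highest 2 for 8 members, and CKO replicate 2 was the highest for 4 and the lowest for 6. CKO replicates 1 and 4 led Cxcl1, Cxcl2, Cxcl10 and Ccrl2, whereas CKO replicates 1 and 5 led Ccl6, Ccl9, Cxcl16 and Ccr1. Cxcl12, Ccr2, Cxcr3 and Xcr1 were highest in CKO replicate 2.

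Marker transcripts of other cells also differed between libraries, in an order that was not the same for each list. The summed level of 10 macrophage markers was 353 to 1025 FPKM in WT and 3380.2, 1217, 1196, 1601 and 3712 FPKM in CKO replicates 1 to 5, and 8 of the 10 were higher in CKO. Lyz2 weighs most in this sum, with means of 322 FPKM in WT and 1413 FPKM in CKO. Of the defining macrophage genes, Adgre1 (F4/80) was at 0.584 to 5.02 FPKM in WT and 2.92 to 5.99 FPKM in CKO, Csf1r at 4.52 to 9.97 and 10.2 to 17.4 FPKM, and Cd68 at 6.12 to 25.9 and 35.7 to 114 FPKM. Mast cell markers were higher in 5 of 6 tested, with sums of 14 to 37.7 FPKM in WT and 84.8 to 286 FPKM in CKO. T and NK cell markers were higher in 3 of 6 tested, with sums of 5.34 to 9.31 FPKM in WT and 19.2 to 33.7 FPKM in CKO, and the T cell genes Cd3e and Cd3d were at 0.559 to 1.47 and 0 to 0.639 FPKM in WT against 1.15 to 5.80 and 0.456 to 1.22 FPKM in CKO. Dendritic cell markers were higher in 2 of 4 tested, with sums of 13.3 to 20.9 and 21.2 to 24.5 FPKM, and mean levels of Flt3 were 0.0292 FPKM in WT and 0.298 FPKM in CKO and those of Clec9a 4.52 and 5.46 FPKM. Of 3 tested B and plasma cell markers 1 was higher, the immunoglobulin joining chain Igj (log2 fold change 2.63, adjusted p = 0.00156), with list sums of 4.08 to 10.2 FPKM in WT and 19.8 to 94.2 FPKM in CKO, highest in replicate 1. The B cell genes Cd79a and Cd79b did not pass, and Pax5 was listed at 0 in all libraries. Eosinophil markers stayed under the filter and Epx was listed at 0 in all libraries. The part of these cells in the chemokine results was not tested.

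The red cell sum was 87.9 to 531 FPKM in WT, and 1201 and 1212 FPKM in CKO replicates 1 and 5 against 50.3 to 326 FPKM in the other CKO libraries. The oviduct marker sum was 259.5 and 84.5 FPKM in CKO replicates 2 and 3 and at most 2.22 FPKM in all other libraries. Immediate-early genes, whose transcription starts soon after a stimulus such as tissue dissection, were higher in 6 of 9. Their mean log2 level was 4.73 to 7.54 in WT, where replicate 7 was highest, and 8.80, 7.65, 6.73, 9.24 and 7.84 in CKO, highest in replicates 4 and 1. WT replicate 7, CKO replicate 1 and CKO replicate 4 were the libraries with the highest Cxcl1, Cxcl2 and Cxcl10 of their groups. WT replicates 3 and 2 had immediate-early levels of 7.24 and 7.11, close to WT replicate 7. Their Cxcl1 was at 4.88 and 3.99 FPKM, against 20.1 FPKM in WT replicate 7. CKO replicate 2, at a level of 7.65, had Cxcl1 at 9.85 and Cxcl10 at 8.55 FPKM, both below WT replicate 7. The relation between these ligands and the immediate-early level across libraries was not tested.

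**Figure D4:**
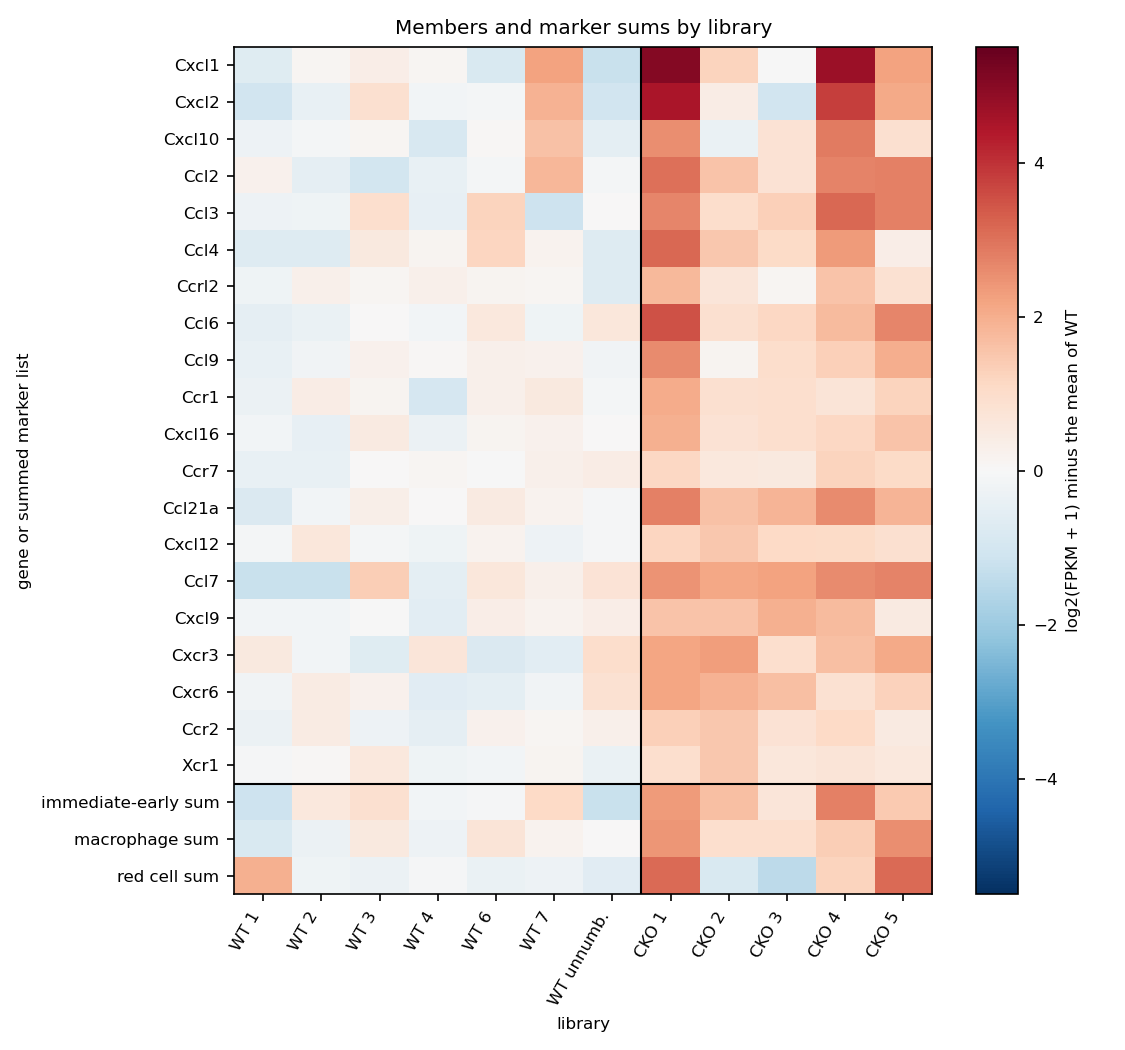
Difference of log2(FPKM + 1) from the WT mean for 20 members and 3 summed marker lists (rows) in the 12 libraries (columns), red for higher and blue for lower. Cxcl1, Cxcl2 and Cxcl10 are darkest in CKO replicates 1 and 4 and raised in WT replicate 7, while Cxcl12, Ccl7 and Ccl21a are raised in all 5 CKO libraries.

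With libraries left out in pairs, settings chosen after seeing the data, the number of members higher in CKO was 12 without CKO replicates 1 and 5 (5.33% of all genes tested), 24 without replicates 2 and 3 (7.15%) and 11 without replicates 1 and 4 (5.00%). With the immediate-early level as a covariate it was 7 (2.77% of all genes tested), namely Ccl7, Ccl21a, Cxcl9, Cxcl12, Cxcl16, Cxcr3 and Cxcr6. Calls over all genes fell in the same fits, from 1145 higher to 702, 941, 658 and 365. The covariate was itself higher in CKO, and fewer libraries make the estimates less precise, so fewer calls do not by themselves show smaller differences. The point estimates moved to different extents, but genotype and covariate go together in part, so no shift can be assigned to either. With the covariate Cxcl1 went from 2.64 to 0.45 on the log2 scale, Ccrl2 from 0.99 to 0.33 and Ccl4 from 1.68 to 0.86. Ccl2 went from 2.18 to 1.57, Ccl21a from 2.15 to 1.63 and Ccl9 from 1.40 to 0.94. Cxcl12 was at 1.15 and 1.09, Cxcl9 at 1.48 and 1.47, and Cxcr3 at 1.83 and 2.31.

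**Figure D5:**
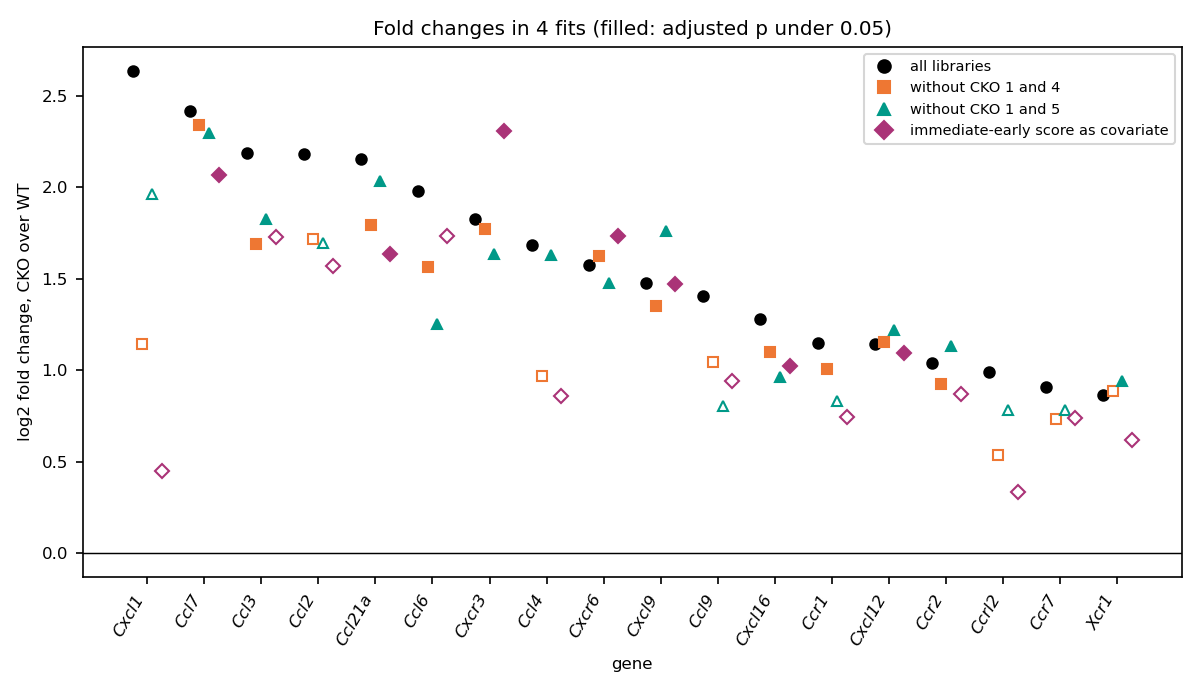
Log2 fold change of CKO over WT for the 18 called members in 4 fits (symbols), filled where the adjusted p is under 0.05. Cxcl1 falls from 2.64 to 0.45 with the immediate-early covariate, whereas Ccl7, Ccl21a, Cxcl12, Cxcl9, Cxcl16, Cxcr3 and Cxcr6 are filled in all 4.

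Genes that signal from chemokine receptors were higher in 10 of 30 tested, with 0 lower and a median log2 fold change of 0.41. Over all genes tested, 8.70% were higher and 7.59% lower, with a median of -0.01. The largest were Rgs1, which limits G protein signalling of chemokine receptors (log2 fold change 2.57, from 6.54 to 42.8 FPKM), the leukocyte GTPase Rac2 (1.35) and Pik3r5, a regulatory subunit of the leukocyte PI3 kinase (1.19). The smallest among those called were Rgs19 (0.44), Stat3 (0.51) and Adrbk2, a receptor kinase (0.68). The widely expressed G protein subunits Gnai2, Gnai3, Gnb1 and Gnb2 did not pass, with log2 fold changes of 0.21, 0.03, 0.02 and 0.14.

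Cytokines, receptors and transcription factors known to induce chemokine genes were higher in 12 of 22 tested and lower in 0, against 8.70% and 7.59% of all genes. Their median log2 fold change was 0.51. The cytokine Il6 (1.93), Tnfaip3, an inhibitor of NF-kappa B that is itself induced by it (1.60), and Il1a (1.44) had the largest log2 fold changes among those called. Nfkbiz, another NF-kappa B regulator, had one of 1.49 that did not pass (adjusted p = 0.0598). Nfkb1 (0.44), Stat6 (0.45) and the TNF receptor Tnfrsf1a (0.51) had the smallest among those called. Tnf and Ifng stayed under the filter at means of 0.269 and 0.0516 FPKM in WT and 1.97 and 0.395 FPKM in CKO, and Il4 and Il13 were listed at 0 in all libraries. Irf7, a factor of the interferon response, did not pass, with a log2 fold change of 0.02.

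Genes for trimming chemokines and for holding them on heparan sulphate moved both ways, with 2 of 10 tested higher and 3 lower. Over all genes tested, 8.70% were higher and 7.59% lower. The macrophage elastase Mmp12, which cleaves chemokines, had a log2 fold change of 2.92, from 2.38 to 25.1 FPKM, and the proteoglycan Sdc4 one of 0.59. The proteoglycan Sdc1 fell by 1.59 on the log2 scale, from 231 to 86.0 FPKM. The heparan sulphate enzymes Ext1 and Ndst1 fell by 0.96 and 0.45. Outside the symbol rule, the non-chemokine attractant Rarres2 (chemerin) and its receptor Cmklr1 were higher by 0.71 and 0.94 on the log2 scale, next to Ccrl2. The chemokines Pf4 (Cxcl4) and Ppbp had log2 fold changes of 1.09 and 0.10 that did not pass (adjusted p = 0.161 and 0.899 in limma).

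Many chemokine genes lie in genomic clusters, and 6 of these clusters are described. Of all genes tested, 8.70% were higher. The Ccl2 cluster (chr11:82035571-82305690, mm10) had 2 of 5 tested members higher, and the Ccl3 cluster (chr11:83525778-83664683) had 4 of 5. In the Cxcl1 cluster (chr5:90759360-90905938) and in the Cxcl10 cluster (chr5:92321347-92365485) it was 1 of 2 each. In the Ccl21 cluster on chromosome 4 it was Ccl21a of 2 tested, with Ccl27a not called. Neither of the 2 tested members of the Cx3cl1 cluster (chr8:94745590-94812036), Cx3cl1 and Ccl17, was called.

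Of the 24 members under the filter, 5 were listed at 0 in all 12 libraries, namely Ccl20 and its receptor Ccr6, Ccl26, Ccl27b and Cxcl15. Values of at least 5 FPKM occurred in 3 of the 24, each in a single library. Xcl1, the ligand of Xcr1, was at 10.6 FPKM in CKO replicate 1, on an estimated 19 fragments, and at most 1.76 FPKM elsewhere. Cxcl13, the attractant of B cells, was at 11.9 FPKM in WT replicate 6 and at most 1.54 FPKM elsewhere, with its receptor Cxcr5 at most 0.392 FPKM. Cxcl17, a chemokine of mucosal epithelia, was at 5.65 FPKM in CKO replicate 2, which also had the highest oviduct markers, and at most 0.962 FPKM elsewhere. Cxcr1, a neutrophil receptor, had values of 0 in 5 WT libraries, and in CKO it ran from 0.417 to 2.60 FPKM. Ccl22, a ligand of Ccr4, reached 1.86 FPKM in WT and 4.94 FPKM in CKO. The others, Ackr4, Ccl1, Ccl19, Ccl21b, Ccl24, Ccr3, Ccr4, Ccr8, Ccr9, Cxcl3, Cxcl5, Cxcl11, Cxcr2 and Cxcr5, stayed between 0 and 3.73 FPKM.

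The authors' deposited table, from Cuffdiff on the same libraries, also lists 18 of the 61 members higher in CKO at a q under 0.05. It lists 0 lower, where 4.44% and 3.64% of its 24255 genes are listed as higher and lower. Of the 18 members it lists, 13 are among the 18 called here. The authors' deposited table adds Ccl11, Cxcl2, Cxcl10, Cxcl14 and Cxcr4, and it does not call Ccl4, Ccr7, Cxcl9, Cxcr6 and Xcr1. For 3 of these (Ccr7, Cxcl9 and Xcr1) it gives a q of 1, which can stand for a gene that was not tested. Its log2 fold changes for them were 1.64, 2.45 and 1.77.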

How the data were processed

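Whole-ovary polyadenylated RNA of 7 WT and 5 CKO samples was sequenced as paired reads. Per the labels, the authors removed adaptors and poor bases, mapped the reads to mm10 with TopHat2 2.0.13 and derived normalized FPKM with Cufflinks 2.2.1. The annotation used, and whether strand was used, is not given in the sources used here. A Cuffdiff comparison by the authors (log2 fold change, p-value, q-value) is deposited beside the FPKM and served only to compare calls, and its direction is CKO over WT in 99.9% of 13045 genes (within 0.01). FPKM can understate or miss short transcripts, and fragments of near-identical copies may be split between them.

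Values were analysed as log2(FPKM + 1) in R 4.3.3. Genes with at least 1 FPKM in at least 5 of 12 libraries were tested with limma 3.58.1 (genotype as the single term, trended variance prior, two-sided, Benjamini-Hochberg over 13168 genes, threshold 0.05). The fit was checked on simulated data. On this scale, folds of genes near 1 FPKM are compressed. Total counts were not used here. The value of 1 fragment came from the steps between low values of 854 genes with a single transcript of known length, and fragment numbers are estimates from it.

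Named in full were members that were called or had a group mean of at least 10 FPKM. Of each pathway list, the 3 largest and the 3 smallest called log2 fold changes were named, and of the marker lists of immune, lymphatic and stromal cells the first members, with counts or sums for the others. Genes named beyond this were picked with their values in view. The members and lists were chosen with earlier results of these data known. Positions and coding sequences are from GENCODE M21, and promoters from RefSeq, which held 46 of the 61 members. Protein sequences were not used here. Results of 1 member and 1 other gene enter the counts but are not reported here. No pairing of the libraries by shared replicate number was seen. Alternatives covered pseudocount, filter, scaling, weights, test, fold threshold, single libraries and a replicate block. The alternatives without pairs of CKO libraries and with the immediate-early covariate, and the list of immediate-early genes, were chosen after seeing the data.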

Additional observations from a re-analysis of the deposited data

Results flagged for a closer look

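Of 74 groups of libraries checked, a single library stood apart from the rest of its group in 12. The cut-off flags about 1 in 20 groups only where values are normally distributed and groups are independent. The values here were FPKM without a log, from members that share libraries, so the number flagged cannot be read against chance. WT replicate 7 stood highest in WT for 4 inducible ligands, with Ccl2 at 20.9, Cxcl1 at 20.1, Cxcl2 at 6.62 and Cxcl10 at 36.5 FPKM. The same library had the highest mean log2 level of the immediate-early genes in WT, at 7.54, and the part of these genes in the ligand levels was not tested. WT replicates 3 and 2 were close to this level, at 7.24 and 7.11, with Cxcl1 at 4.88 and 3.99 FPKM. Without WT replicate 7 the log2 fold change of Cxcl1 was 3.0 (adjusted p = 0.0186 in limma).

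WT replicate 3 was highest in WT for Ccl11 at 3.48 FPKM and lowest for Ccl12, listed at 0. Ccl8 was highest in WT replicate 6 at 16.4 FPKM. The unnumbered WT library was highest in WT for Cx3cl1, at 21.4 FPKM, and for Ccl27a, at 9.12 FPKM. In CKO, replicate 1 was highest for Ccl27a at 10.3 FPKM and for Ccr1 at 11.9 FPKM, and replicate 5 was highest for Ackr3 at 26.9 FPKM.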

How the results depend on the processing

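The number of members higher in CKO was 18, and the number lower was 0 in all 29 alternatives. The number higher was 18 with each other pseudocount, with no filter, with a mean filter and under each of 3 scalings. It was 20 with sample weights and 13 with the exact Wilcoxon test. It was 10 with a filter of 5 FPKM, where 19 members were tested, and 7 with a fold threshold of 0.5 on the log2 scale (8.69% and 0.889% of all genes tested). Leaving out 1 library at a time gave 16 to 22, where 893 to 1200 of all 13168 genes were higher. Of the 18, 16 kept their call in each of these 12 fits, the exceptions being Ccl4 and Cxcl1. The number was 11 without CKO replicates 1 and 4 and 7 with the immediate-early covariate, where 5.00% and 2.77% of all genes tested were higher, and the cause was not tested. Ccl7, Ccl21a, Cxcl9, Cxcl12, Cxcr3 and Cxcr6 were called in every alternative that tested them. With the replicate block, over the 8 numbered libraries whose numbers occur in both groups, 16 members were higher, and 16 without the block in the same libraries. Of all 13168 genes, 756 were higher with the block and 901 without it. The unnumbered WT library and CKO replicate 5 were not in these fits. No pairing by number was seen, since deviations of same-numbered libraries correlated at -0.03, 0.09, 0.04 and -0.07 for numbers 1 to 4. Only number 2 was the best match of its own number. So few values cannot exclude a weak link between same-numbered libraries. Estimated fragment numbers under 10 in WT limit Ccl3, Ccl4, Ccl7, Ccr7 and Xcr1. Such estimates exist only for members with a single transcript, so other members may share this limit. Cxcr3 had an estimated 1 to 16 fragments in WT. Cxcl9 had no estimate, and its WT values of 0.132 to 1.14 FPKM also rest on few fragments.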
